A study of Homo sapiens with 24 samples.

Results

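The 10 genes described here encode the HSP90 and HSP60 chaperones and proteins that work with them. HSP90AA1 and HSP90AB1 are the cytosolic HSP90 proteins, TRAP1 is the HSP90 of mitochondria, HSPD1 and HSPE1 are the mitochondrial HSP60 and HSP10 pair, and HSPH1 is a large cytosolic relative of HSP70. AHSA1, STIP1, PTGES3 and CDC37 are cochaperones of HSP90. The genes were chosen by their symbols, with earlier results of these data known, and all 10 were among the 18915 genes of the count matrix and among the 12685 genes with enough counts to test. The cells were HepG2, a human hepatoma line, treated for 10 h and sequenced from the 3′ ends of their mRNA. The 6 groups were DMSO (the vehicle control), 50 nM ISRIB, 20 µM nelfinavir, 50 nM bortezomib, 50 nM bortezomib plus 20 µM nelfinavir, and 50 nM bortezomib plus 50 nM ISRIB, each with 4 biological replicates, or 24 libraries. Bortezomib inhibits the proteasome, nelfinavir is an HIV protease inhibitor that also raises phosphorylation of eIF2α, and ISRIB, which activates eIF2B, opposes its effect on translation. A library held between 5154533 and 6943164 counts. A single tumour-derived line, a single time and a single dose of each drug limit what the groups can stand for.

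HSP90 is an ATP-driven chaperone that binds proteins late in folding, among them many kinases and steroid receptors, and its cochaperones hand it clients and pace its cycle. In mitochondria, HSPD1 forms a folding chamber that HSPE1 caps, while TRAP1 acts in the matrix. When misfolded proteins build up, as they do when the proteasome is blocked, the transcription factor HSF1 is known to bind heat shock elements and raise many chaperone genes, and proteasome inhibitors are known to induce this response in many cell types.

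The unit of a gene's level here is CPM, its count divided by the library's total on the customary scale and by a TMM factor, which brings most genes to a common level across libraries. Since counts from 3′ ends do not grow with transcript length and capture differs between genes, levels are compared between groups and not between genes. Errors on levels are SD over the 4 libraries of a group, and errors on log2 fold changes are SE from the fit. A gene is called changed when its p adjusted over all 12685 genes is under 0.05, and the share of all those genes called in the same direction stands beside each count of the 10. Counts come from bulk cells, so fewer cells with a transcript and less of it per cell cannot be told apart.

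The libraries with bortezomib differed from the others in their composition. Mitochondrially encoded genes took 21.5% ± 1.32 of counts in DMSO, 21.9% ± 1.60 in ISRIB, 20.5% ± 1.66 in nelfinavir, 33.8% ± 1.20 in bortezomib, 27.2% ± 2.26 in bortezomib plus nelfinavir and 36.1% ± 3.13 in bortezomib plus ISRIB (SD, n = 4). Bortezomib against DMSO gave a two-sided exact permutation p of 0.0286, the smallest that 4 against 4 libraries can give, and 0.0654 after adjustment over 16 such tests. TMM factors ran from 1.19 to 1.24 in DMSO and from 0.846 to 0.869 in bortezomib. With library totals alone in place of TMM, the median of all genes moved by -0.50 on the log2 scale in bortezomib against DMSO, by -0.51 in bortezomib plus nelfinavir against nelfinavir and by -0.54 in bortezomib plus ISRIB against ISRIB, so each change with bortezomib is relative to most genes. Total counts were lower in bortezomib plus nelfinavir than in nelfinavir and in bortezomib plus ISRIB than in ISRIB (exact permutation p = 0.0286 and 0.0654 adjusted, for each), and gave 0.0571 (0.114 adjusted) for bortezomib against DMSO. Genes with any count numbered 14454 ± 56.4 in DMSO, 14389 ± 40.3 in ISRIB, 14423 ± 85.1 in nelfinavir, 13013 ± 116 in bortezomib, 13102 ± 134 in bortezomib plus nelfinavir and 13167 ± 64.8 in bortezomib plus ISRIB. The part of these differences in the results was not tested.

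The libraries carried the markers of hepatoma cells. All 10 hepatoma markers were in the table, with summed CPM, here of the library total without TMM, of 16452 ± 836 in DMSO, 14888 ± 946 in ISRIB, 15214 ± 903 in nelfinavir, 7995 ± 263.5 in bortezomib, 5740 ± 578 in bortezomib plus nelfinavir and 7924 ± 317 in bortezomib plus ISRIB, and ALB was the most abundant of them in DMSO at 4015. Of 5 fibroblast markers, COL1A1 and COL3A1 were in the table and summed to at most 0.400 in any group. Of 4 endothelial markers, only KDR was in the table, at most at 0.0417. Of the blood markers given here, PTPRC, CD3E and HBB were not in the table, and LYZ fell from 451 ± 45.3 in DMSO to 92.5 ± 19.8 in bortezomib. The part of this shift in the results was not tested.

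The 10 genes took 1.37% ± 0.0634 of all counts in DMSO, 1.36% ± 0.0121 in ISRIB and 1.11% ± 0.0934 in nelfinavir (SD, n = 4). Their share was 2.91% ± 0.157 in bortezomib, 4.45% ± 0.633 in bortezomib plus nelfinavir and 2.46% ± 0.266 in bortezomib plus ISRIB. HSP90AA1 by itself took 0.597% of counts in DMSO and 2.31% in bortezomib plus nelfinavir. The shares are a description with no test. Counted over genes not encoded in mitochondrial DNA, they were 1.74% in DMSO, 1.74% in ISRIB, 1.4003% in nelfinavir, 4.39% in bortezomib, 6.10% in bortezomib plus nelfinavir and 3.84% in bortezomib plus ISRIB.

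**Figure D1:**
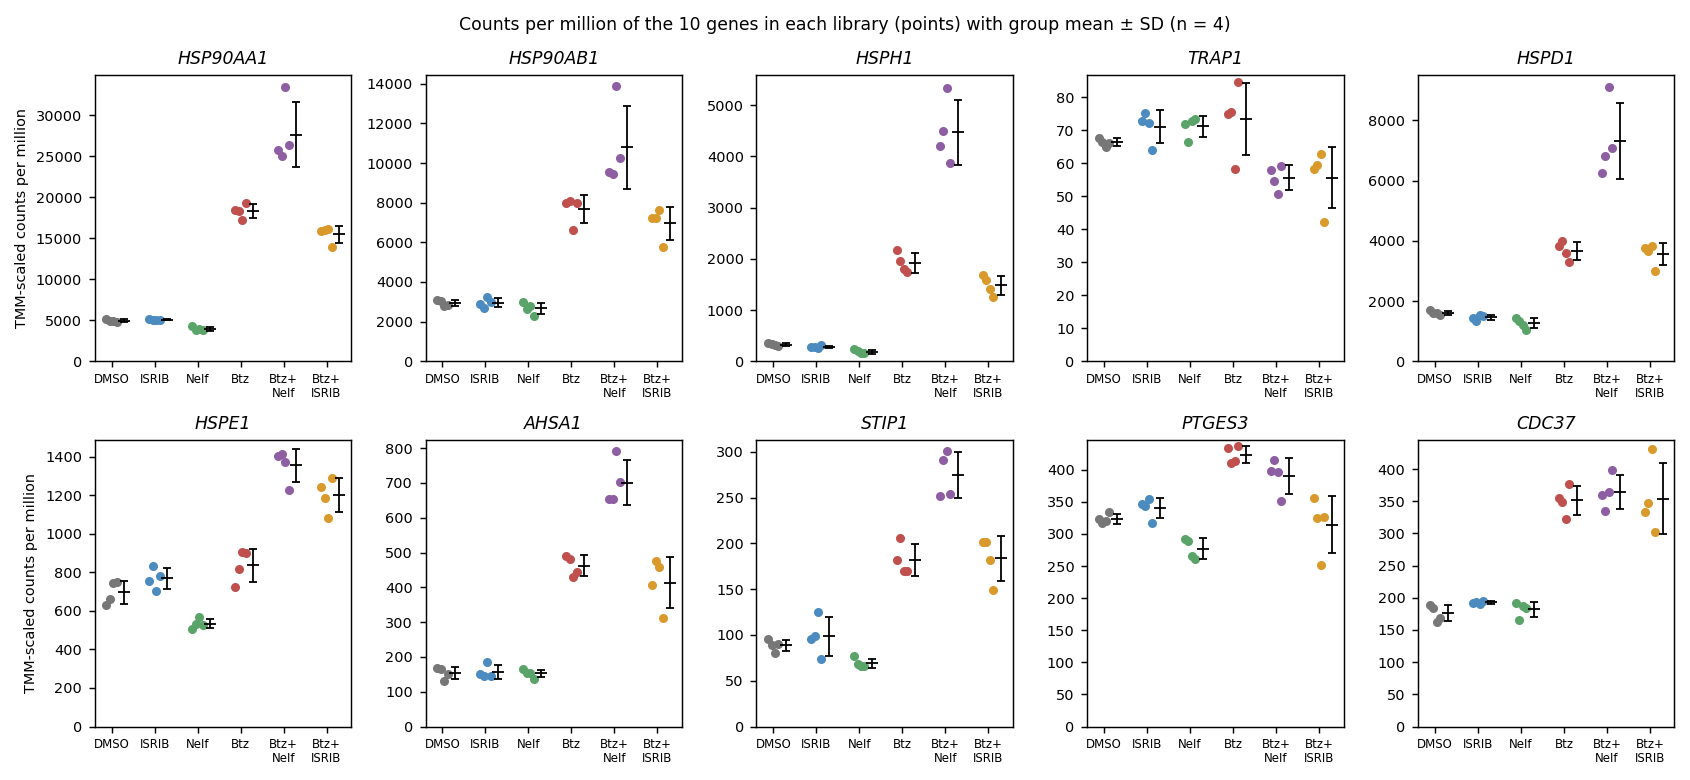
TMM-scaled CPM of each of the 10 genes (vertical axis, from 0) in the 24 libraries (points) of the 6 groups, with the group mean and SD beside them (n = 4). All 12 libraries with bortezomib sit above all 12 without it for HSP90AA1, HSP90AB1, HSPH1, HSPD1, AHSA1, STIP1 and CDC37. The libraries with and without it overlap for TRAP1, HSPE1 and PTGES3. The share of all tested genes was not counted for 12 against 12 libraries. In bortezomib against DMSO alone, 25.6% of all tested genes were separate and higher.

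The cytosolic HSP90 genes lie on chromosomes 14 and 6 of GRCh37. HSP90AA1 (ENSG00000080824, chr14:102547079-102606036, minus strand) is the form known as heat inducible, and HSP90AB1 (ENSG00000096384, chr6:44213903-44221625, plus strand) is the form known for its steady expression. HSP90AA1 averaged 4945 ± 157 CPM in DMSO, 5065 ± 59.6 in ISRIB, 3976 ± 243 in nelfinavir, 15476 ± 1014 in bortezomib plus ISRIB, 18365 ± 842 in bortezomib and 27660.0 ± 3924 in bortezomib plus nelfinavir. From the lowest group to the highest, neighbouring groups were separate in every library except ISRIB and DMSO. HSP90AB1 averaged 2948 ± 151 CPM in DMSO, 2953 ± 215 in ISRIB, 2676 ± 283.5 in nelfinavir, 6964 ± 827 in bortezomib plus ISRIB, 7680.5 ± 702 in bortezomib and 10790.0 ± 2095 in bortezomib plus nelfinavir. Its nelfinavir, DMSO and ISRIB groups overlapped, as did bortezomib plus ISRIB and bortezomib.

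The last 500 bases of these transcripts, where 3′ reads fall, have near copies elsewhere in the genome, at 95% identity or more over at least 80 bases. HSP90AA1 has 4 such places, the longest of 194 bases, and HSP90AB1 has 1, the pseudogene HSP90AB3P, over all 500. HSPD1 has 2 and HSPE1 has 7, with identities of up to 98.8% and 98.2%, and PTGES3 has 2. HSPH1, TRAP1, AHSA1, STIP1 and CDC37 have none. The sources used here do not say how reads matching several places were counted, so the levels of the 5 genes with copies carry that uncertainty.

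Promoter sequences of the 10 genes were read from GRCh37, from 250 bases before to 50 after the start of the canonical GENCODE transcript. They were read since 9 of the 10 genes were called higher with bortezomib and HSF1 is known to act at heat shock elements. The heat shock element was searched on both strands as 3 alternating units, GAANNTTCNNGAA or TTCNNGAANNTTC, and as 2 units, GAANNTTC or TTCNNGAA, which any match of 3 units also holds. The 3-unit form lies in 3 of the 10 windows, those of HSP90AA1, HSPH1 and HSPD1, against 72 of 19881 windows of protein-coding genes (0.362%). The 2-unit form lies in those and in STIP1 (bases 14 to 21 after the start), against 11% of windows. The C/EBP-ATF element TGATGNAA lies in none of the 10 and in 2.49% of all windows. The same search in the RefSeq promoter table, on GRCh38, found no heat shock element of either form in the 10 genes, and its windows hold the start used here for TRAP1, HSPE1, PTGES3 and CDC37 only; the canonical windows were chosen after that was seen. A match is a description of letters, and binding was not measured.

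The following lines hold the 3 windows with a 3-unit match, in capitals, and for contrast that of HSP90AB1, which has none, each 5′ to 3′ on the gene's own strand. HSP90AA1 is chr14:102553332-102553631 (minus strand), with its match from -88 to -76 of the start. HSPH1 is chr13:31735992-31736291 (minus strand), with its match from -59 to -47. HSPD1 is chr2:198364515-198364814 (minus strand), with 2 overlapping matches from -245 to -228. HSP90AB1 is chr6:44214588-44214887 (plus strand).
HSP90AA1: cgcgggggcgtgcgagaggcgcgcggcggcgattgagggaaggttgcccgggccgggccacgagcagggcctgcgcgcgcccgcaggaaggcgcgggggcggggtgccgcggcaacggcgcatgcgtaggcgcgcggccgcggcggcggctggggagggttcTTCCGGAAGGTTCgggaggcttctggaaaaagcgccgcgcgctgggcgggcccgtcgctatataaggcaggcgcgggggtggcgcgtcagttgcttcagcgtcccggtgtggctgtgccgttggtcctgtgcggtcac
HSPH1: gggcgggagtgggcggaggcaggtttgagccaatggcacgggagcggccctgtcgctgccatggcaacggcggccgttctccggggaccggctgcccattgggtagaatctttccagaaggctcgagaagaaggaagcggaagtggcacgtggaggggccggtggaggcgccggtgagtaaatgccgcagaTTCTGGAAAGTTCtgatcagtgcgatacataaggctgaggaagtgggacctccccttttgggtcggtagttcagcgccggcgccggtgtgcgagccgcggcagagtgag
HSPD1: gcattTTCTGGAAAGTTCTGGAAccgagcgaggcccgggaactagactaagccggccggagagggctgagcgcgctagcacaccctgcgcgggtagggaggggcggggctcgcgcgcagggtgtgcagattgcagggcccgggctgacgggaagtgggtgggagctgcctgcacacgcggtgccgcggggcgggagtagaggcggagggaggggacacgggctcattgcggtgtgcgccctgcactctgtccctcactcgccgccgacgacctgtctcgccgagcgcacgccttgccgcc
HSP90AB1: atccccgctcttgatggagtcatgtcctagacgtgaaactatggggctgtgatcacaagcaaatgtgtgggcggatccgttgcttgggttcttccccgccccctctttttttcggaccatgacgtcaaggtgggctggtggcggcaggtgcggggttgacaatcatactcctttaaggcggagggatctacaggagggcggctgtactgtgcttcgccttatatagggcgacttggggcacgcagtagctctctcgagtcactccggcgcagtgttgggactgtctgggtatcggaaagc

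HSPH1 (ENSG00000120694, chr13:31709110-31736525, minus strand), a nucleotide exchange factor for HSP70, had the widest range of the 10 relative to its DMSO level. It averaged 184 ± 37.5 CPM in nelfinavir, 279.5 ± 20.6 in ISRIB, 322 ± 30.005 in DMSO, 1480.3 ± 190.1 in bortezomib plus ISRIB, 1921 ± 195 in bortezomib and 4469.7 ± 632 in bortezomib plus nelfinavir. Of neighbours in this order, only ISRIB and DMSO overlapped.

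HSPD1 (ENSG00000144381, chr2:198351308-198381461, minus strand) and HSPE1 (ENSG00000115541, chr2:198364864-198368173, plus strand) are neighbours that start 539 bases apart and run in opposite directions, and their annotated exons share 135 bases. The HSPD1 match printed above lies between the starts but outside the window of HSPE1. HSPD1 averaged 1265 ± 169 CPM in nelfinavir, 1459 ± 86.6 in ISRIB, 1613 ± 71.5 in DMSO, 3563.5 ± 377 in bortezomib plus ISRIB, 3668 ± 308 in bortezomib and 7309 ± 1256 in bortezomib plus nelfinavir. HSPE1 averaged 534 ± 24.4 CPM in nelfinavir, 696 ± 58.8 in DMSO, 768 ± 53.9 in ISRIB, 837 ± 85.1 in bortezomib, 1201 ± 89.8 in bortezomib plus ISRIB and 1354 ± 86.2 in bortezomib plus nelfinavir. HSPD1 thus split into groups with and without bortezomib that did not overlap, while the HSPE1 libraries of DMSO, ISRIB and bortezomib overlapped from each to the next.

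TRAP1 (ENSG00000126602, chr16:3701640-3767554, minus strand), the mitochondrial HSP90, stayed in a narrow range. It averaged 55.6 ± 3.79 CPM in bortezomib plus nelfinavir, 55.6 ± 9.16 in bortezomib plus ISRIB, 66.3 ± 1.21 in DMSO, 71.1 ± 4.90 in ISRIB, 71.1 ± 3.23 in nelfinavir and 73.3 ± 10.99 in bortezomib. Of neighbours in this order, only bortezomib plus ISRIB and DMSO did not overlap. The annotation puts 1477 exonic bases of DNASE1 on the opposite strand of TRAP1, and the strand setting of the counting was not given. Opposite-strand genes in the count matrix also share exonic bases with HSP90AA1 (WDR20, 197) and AHSA1 (VIPAS39, 83). STIP1 shares 445 with a noncoding transcript that is not in the count matrix.

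Among the cochaperones, AHSA1 (ENSG00000100591, chr14:77924213-77935815, plus strand) stimulates the ATPase of HSP90 and STIP1 (ENSG00000168439, chr11:63952744-63972015, plus strand) bridges HSP70 and HSP90. PTGES3 (ENSG00000110958, chr12:57057125-57082192, minus strand), also called p23, holds HSP90 in its closed state, and CDC37 (ENSG00000105401, chr19:10501809-10530797, minus strand) delivers kinases. AHSA1 ranged from 153 ± 11.2 CPM in nelfinavir to 701 ± 64.7 in bortezomib plus nelfinavir, and STIP1 from 69.2 ± 5.00 to 274 ± 25.3 in the same groups. CDC37 ranged from 176 ± 12.7 CPM in DMSO to 365 ± 26.3 in bortezomib plus nelfinavir, and of neighbours in the order of its levels only ISRIB and bortezomib did not overlap. PTGES3 ranged from 277 ± 16.2 CPM in nelfinavir to 424 ± 13.7 in bortezomib, and each group overlapped the next in order.

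Comparing bortezomib with DMSO asks what proteasome inhibition did to these genes. Of the 10 genes, 9 rose, where 27.6% of all tested genes rose, and 0 fell, where 25.8% fell; with library totals alone, 2 of the 10 were called lower, HSPE1 and TRAP1, PTGES3 was below 0, and calls over all tested genes came to 1490 higher and 6266 lower. The largest rises were in HSPH1 (5.96-fold), HSP90AA1 (3.71-fold), AHSA1 (2.99-fold) and HSP90AB1 (2.61-fold), and HSPD1, STIP1 and CDC37 also went up 2.27-fold, 2.05-fold and 1.99-fold. TRAP1 was not called, at a log2 fold change of 0.15 ± 0.11 (adjusted p = 0.267). The median log2 fold change of the 10 was 1.11, against 0.0017 over all tested genes.

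HSPH1 stood at 358, 333, 309 and 289 CPM in the DMSO libraries and at 2179.7, 1957, 1805.5 and 1741 in the bortezomib libraries. The lowest bortezomib library was far above the highest DMSO library, and the log2 fold change was 2.58 ± 0.12 (adjusted p = 1.67e-18). HSP90AA1 stood at 5162, 4955, 4851 and 4809.5 CPM in DMSO and at 18478, 18365, 17283 and 19335 in bortezomib. These groups were as clearly apart, and its log2 fold change was 1.89 ± 0.08 (adjusted p = 4.82e-19). HSP90AB1 stood at 3104, 3050.4, 2806 and 2831 CPM in DMSO and at 8006, 8090.1, 6629 and 7997 in bortezomib. Replicate 3 lay below the other bortezomib libraries and still above all of DMSO, and the log2 fold change was 1.38 ± 0.11 (adjusted p = 8.19e-13).

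The mitochondrial pair moved by unequal amounts. HSPD1 stood at 1699.9, 1612, 1614 and 1525 CPM in DMSO and at 3818, 3991, 3582 and 3280.3 in bortezomib, a log2 fold change of 1.19 ± 0.10 (adjusted p = 1.22e-11). HSPE1 stood at 631, 662, 745 and 747 CPM in DMSO and at 724, 818, 906 and 899 in bortezomib. HSPD1 groups did not overlap and HSPE1 groups did, since bortezomib replicate 1 lay below DMSO replicates 3 and 4. HSPE1 was called higher, at 0.27 ± 0.08 (adjusted p = 0.00747), but fell with library totals alone (-0.23, adjusted p = 0.0129), and was not called with upper-quartile scaling (0.18, adjusted p = 0.0657), without a filter on low counts (0.19, adjusted p = 0.0963), or without DMSO replicate 2 (0.19, adjusted p = 0.0851), bortezomib replicate 3 (0.17, adjusted p = 0.109) or bortezomib replicate 4 (0.18, adjusted p = 0.103). Of the smaller changes, PTGES3 rose by 0.39 ± 0.08 (adjusted p = 0.000171), which library totals alone turned to -0.11 (adjusted p = 0.259), and TRAP1 was called lower with library totals alone (-0.35, adjusted p = 0.00972).

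**Figure D2:**
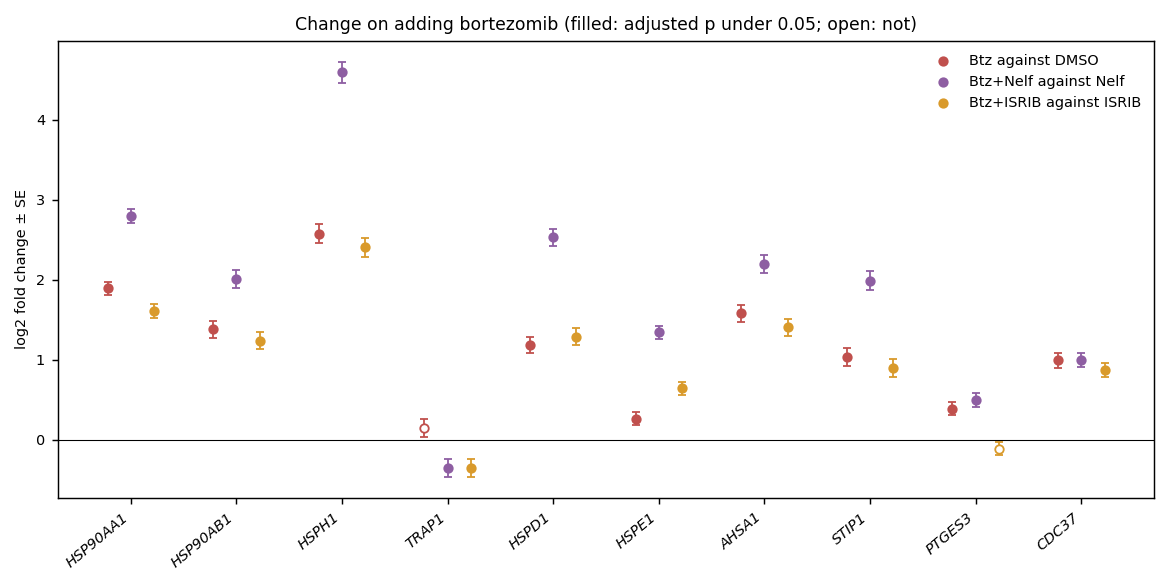
Log2 fold change (vertical axis, ± SE) of each of the 10 genes on adding bortezomib to DMSO (red), to nelfinavir (purple) and to ISRIB (orange), filled where the adjusted p is under 0.05. HSPH1 has the largest value in each comparison, from 2.40 to 4.60, and TRAP1 lies at 0.15, -0.36 and -0.35.

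Of 29 other HSP90 cochaperones, 14 rose with bortezomib, where 27.6% of all tested genes rose, and 3 fell, where 25.8% fell, with a median log2 fold change of 0.46. CHORDC1 rose by 1.76 ± 0.11 (adjusted p = 1.54e-15), the CDC37 relative CDC37L1 by 1.46 ± 0.16 (adjusted p = 3.37e-09) and the AHSA1 relative AHSA2 by 1.33 ± 0.13 (adjusted p = 8.79e-11). NUDCD2 fell by 0.89 ± 0.20 (adjusted p = 0.000396) and FNIP2 fell by 0.79 ± 0.13 (adjusted p = 6.4e-06). With library totals alone, 6 of these genes were called higher and 10 lower. A 3-unit heat shock element lies in 1 of the 27 windows found for these genes, that of CHORDC1.

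Of 17 mitochondrial chaperones and proteases, 8 rose with bortezomib, against those 27.6% of all tested genes, and 3 fell, against 25.8%, with a median log2 fold change of 0.25. The protease LONP1 rose by 1.31 ± 0.10 (adjusted p = 7.09e-13), HSPA9, the HSP70 of mitochondria, by 1.02 ± 0.10 (adjusted p = 3.55e-10) and the protease YME1L1 by 0.85 ± 0.10 (adjusted p = 5.81e-09). DNAJC19 fell by 1.33 ± 0.21 (adjusted p = 1.61e-06) and PMPCA fell by 0.50 ± 0.16 (adjusted p = 0.00913). With library totals alone, 3 were called higher and 7 lower. None of the 17 windows (0) has the 3-unit heat shock element.

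All 11 genes on a list of HSF1 and cytosolic heat shock genes rose with bortezomib, where 27.6% of all tested genes rose, with a median log2 fold change of 1.33. HSPA1A and HSPA1B, the inducible HSP70 genes, rose by 5.49 ± 0.14 (adjusted p = 1.69e-25) and 5.23 ± 0.12 (adjusted p = 4.71e-26), and the cochaperone BAG3 by 3.37 ± 0.22 (adjusted p = 1.2e-14). The values for HSPH1 and HSP90AA1, at 2.58 and 1.89, were smaller than these 3, a difference between genes that was not tested. Of the 11 windows, 2 have the 3-unit heat shock element, those of DNAJA1 and HSPA8, and 7 have the 2-unit form, among them HSPA1A and HSPA1B, while BAG3 has neither. HSP90B1, the HSP90 of the endoplasmic reticulum, rose by 0.46 ± 0.10 (adjusted p = 0.000249), which library totals alone turned to -0.04 (adjusted p = 0.734).

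Nelfinavir against DMSO asks what that drug did without bortezomib. It lowered 5 of the 10 genes, HSPH1, HSPE1, STIP1, HSPD1 and HSP90AA1, where 8.84% of all tested genes fell, and raised 0, where 10.4% rose. HSPH1 fell most, by 0.80 ± 0.12 (adjusted p = 3.03e-06), and the others fell by 0.31 to 0.38. HSP90AB1 (-0.14), TRAP1 (0.10), AHSA1 (-0.02), PTGES3 (-0.22) and CDC37 (0.05) were not called. The median log2 fold change of the 10 was -0.27, against 0.0070 over all tested genes.

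HSPH1 stood at 231, 199, 154 and 154 CPM in the nelfinavir libraries, against 289 or more in DMSO. HSP90AA1 stood at 4321, 3824, 3971.5 and 3789.5 CPM, against 4809.5 or more in DMSO. Neither gene had a nelfinavir library inside the DMSO range, and HSP90AA1 fell by 0.31 ± 0.08 (adjusted p = 0.00503). HSPE1 stood at 508, 533, 567 and 528 CPM, below all DMSO libraries, and fell by 0.38 ± 0.08 (adjusted p = 0.000852). The other calls were less stable. HSPD1 fell by 0.35 ± 0.10 (adjusted p = 0.0125), a call lost without nelfinavir replicate 4 (-0.27, adjusted p = 0.0811). STIP1 fell by 0.36 ± 0.12 (adjusted p = 0.0259), a call lost without DMSO replicate 1 (-0.32) or 4 (-0.35) or nelfinavir replicate 2 (-0.35), 3 (-0.34) or 4 (-0.34), so that 3 of the 10 were called without nelfinavir replicate 4. PTGES3 was just over the threshold (adjusted p = 0.0557) and was called lower under 6 alternative settings, among them DESeq2 (adjusted p = 0.0185), and without each of 8 libraries with bortezomib.

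Of the 11 heat shock genes, 8 fell and 0 rose with nelfinavir, where 8.84% of all tested genes fell and 10.4% rose, with a median log2 fold change of -0.51, and HSPA1A fell by 1.22 ± 0.13 (adjusted p = 5.55e-09) and HSPA1B fell by 0.98 ± 0.12 (adjusted p = 1.75e-07). Of the 29 other cochaperones, 2 rose and 3 fell, with CHORDC1 at -0.85 ± 0.11 (adjusted p = 4.53e-07), FKBP5 at -0.76 ± 0.14 (adjusted p = 0.000166), FNIP1 at 0.39 ± 0.14 (adjusted p = 0.0380) and TOMM70A at 0.30 ± 0.09 (adjusted p = 0.0176). The FNIP1 call was lost with upper-quartile scaling (adjusted p = 0.0572), with library totals alone (adjusted p = 0.063) and without a filter on low counts (adjusted p = 0.0569). The count of 2 was 0 without DMSO replicate 2 or nelfinavir replicate 1 or 3, and 1 without DMSO replicate 1, 3 or 4 or nelfinavir replicate 2 or 4; the count of 3 was 5 without replicate 3 of bortezomib plus nelfinavir or of bortezomib plus ISRIB, 5 with upper-quartile scaling or DESeq2, and 6 in a fit of these groups alone. Among the 17 mitochondrial genes 4 rose and 0 fell, among them GRPEL2, an exchange factor for mitochondrial HSP70 (1.03 ± 0.16, adjusted p = 6.42e-06), LONP1 (0.82 ± 0.10, adjusted p = 1.14e-07) and DNAJA3 (0.56 ± 0.13, adjusted p = 0.00189). HSPD1 and HSPE1, also mitochondrial, thus had values of the opposite sign to these 3.

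ISRIB against DMSO asks what ISRIB did in cells without bortezomib. None of the 10 genes was called, 0 higher and 0 lower, and neither was any other gene in the edgeR fit of all 6 groups, 0% in each direction, with 703 genes at an unadjusted p under 0.05. Other fits called genes outside the 10, with 1 higher and 20 lower in DESeq2, 5 and 34 in edgeR without a filter on low counts and 4 and 76 in edgeR on these groups alone. Log2 fold changes of the 10 ran from -0.20 (HSPH1) to 0.15 (STIP1), each with an SE of at most 0.12. HSP90AA1 stood at 5153, 5048, 5026 and 5033 CPM, which overlaps DMSO. HSPH1 stood at 280, 269, 261 and 308 CPM in the ISRIB libraries, with replicate 4 inside the DMSO range. CDC37 was the only gene of the 10 with separate groups, at 191 to 195 CPM in ISRIB and 162 to 189 in DMSO. Its log2 fold change was 0.13, and 3.49% of all tested genes were separate and higher.

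Bortezomib plus nelfinavir against bortezomib asks how nelfinavir changed the response. Nelfinavir without bortezomib raised 0 of the 10 genes, and added to it raised 7, where 15.6% of all tested genes rose, and lowered 1, where 13.4% fell. HSPH1 rose 2.33-fold, HSPD1 1.99-fold, HSPE1 1.62-fold, AHSA1 1.52-fold, STIP1 1.51-fold, HSP90AA1 1.51-fold and HSP90AB1 1.405-fold. TRAP1 fell by 0.40 ± 0.11, and PTGES3 (-0.12) and CDC37 (0.05) were not called. The median log2 fold change of the 10 was 0.59, against -0.02 over all tested genes.

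HSPH1 stood at 4195, 4486, 5336 and 3861 CPM with both drugs, a log2 fold change of 1.22 ± 0.11 (adjusted p = 8.77e-10). HSPD1 stood at 6239, 6803, 9119 and 7076 CPM, a log2 fold change of 0.99 ± 0.10 (adjusted p = 5.27e-09). For both genes the lowest library with both drugs was above the highest with bortezomib alone. HSPE1 stood at 1402, 1414, 1372 and 1227 CPM, also above all bortezomib libraries, and rose by 0.69 ± 0.08 (adjusted p = 9.21e-08). HSP90AA1 stood at 25747, 25064, 33495 and 26335 CPM, a log2 fold change of 0.59 ± 0.08 (adjusted p = 1.28e-06). Replicate 3 was the highest of these 4 libraries for HSP90AA1, HSP90AB1, HSPH1, HSPD1, AHSA1 and STIP1, and it had the highest share of counts on the 10 genes, 5.37%. Over all genes, replicates 1 and 2 of this group differed by a chi-square per degree of freedom of 3.99 and replicates 3 and 4 by 7.3, with 13.2 to 20.3 between the 2 sets, and the mitochondrially encoded share was 28.5%, 29.6%, 24.9% and 25.6% in replicates 1 to 4. TRAP1 stood at 57.9, 54.5, 50.7 and 59.1 CPM, against 74.9, 75.4, 58.3 and 84.7 in bortezomib. Its groups overlapped through bortezomib replicate 3, and its call (adjusted p = 0.00686) was lost without bortezomib replicate 4 (-0.29, adjusted p = 0.0686), which left 0 of the 10 called lower. The mitochondrially encoded share was also lower with both drugs than with bortezomib (exact permutation p = 0.0286, 0.0654 adjusted), and its part was not tested.

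**Figure D3:**
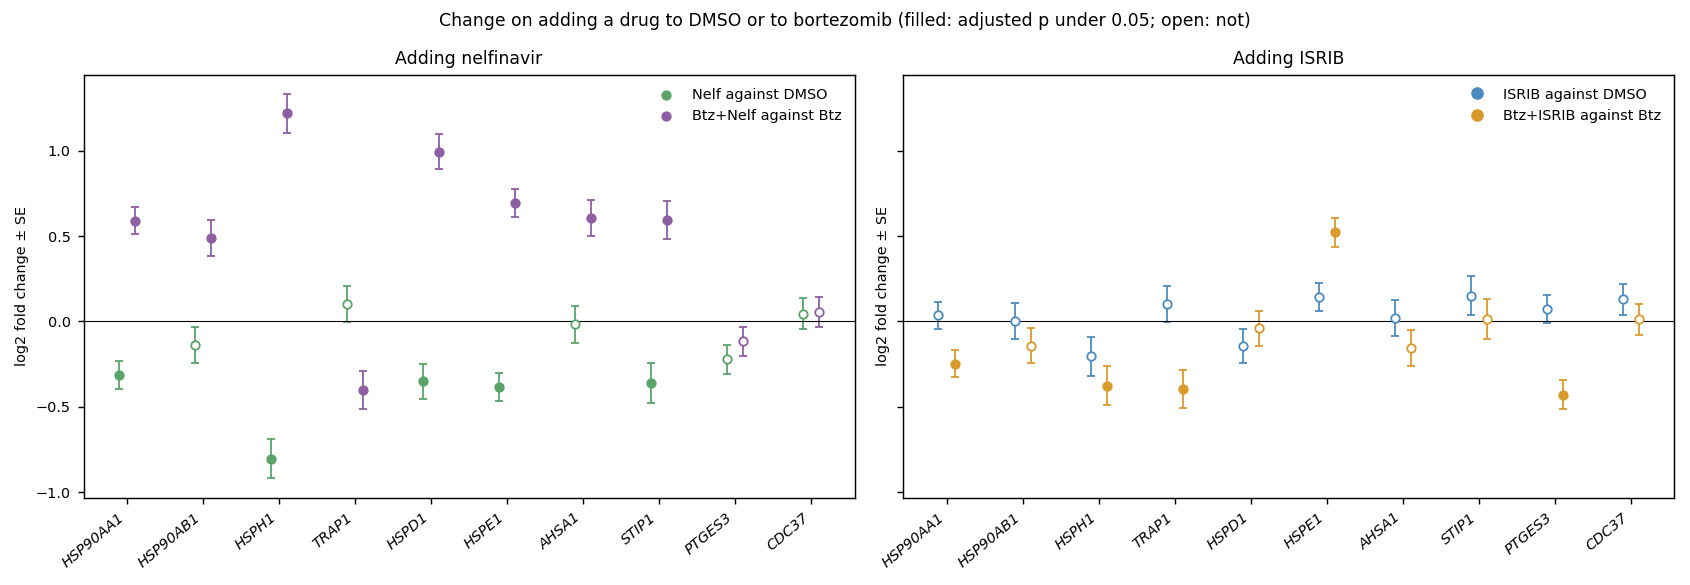
Log2 fold change (vertical axis, ± SE) of each of the 10 genes on adding nelfinavir (left) or ISRIB (right) to DMSO or to bortezomib, filled where the adjusted p is under 0.05. For HSPH1 nelfinavir gives -0.80 without bortezomib and 1.22 with it, and for HSPE1 ISRIB gives 0.14 without and 0.52 with it.

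The difference between these changes was tested as an interaction, the log2 change with nelfinavir on top of bortezomib less that without bortezomib. It was called positive for 7 of the 10 genes, where it was for 9.74% of all tested genes. It was called negative for TRAP1, where it was for 10.0% of all tested genes. HSPH1 had the largest, 2.02 ± 0.16 (adjusted p = 3.7e-11), followed by HSPD1 at 1.34 ± 0.14 (adjusted p = 1.66e-08) and HSPE1 at 1.08 ± 0.12 (adjusted p = 2.25e-08). STIP1 (0.95), HSP90AA1 (0.91), HSP90AB1 (0.63) and AHSA1 (0.62) were also called, and PTGES3 (0.11) and CDC37 (0.0091) were not. TRAP1, at -0.50 ± 0.15 (adjusted p = 0.0194), was not called without a filter on low counts (-0.44, adjusted p = 0.0624), nor without bortezomib replicate 1 (-0.45), 2 (-0.44) or 4 (-0.38) or replicate 2 (-0.44) or 3 (-0.43) of bortezomib plus nelfinavir.

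Of the 11 heat shock genes, 7 rose and 1 fell when nelfinavir was added to bortezomib, where 15.6% of all tested genes rose and 13.4% fell, with a median log2 fold change of 0.88. DNAJB1, an HSP40 that works with HSP70, rose by 1.42 ± 0.09 (adjusted p = 3.16e-14), HSPA4L, a relative of HSPH1, by 1.03 ± 0.14 (adjusted p = 1.66e-06) and HSPA1A by 1.01 ± 0.11 (adjusted p = 3.09e-08). HSPA8, the constitutive HSP70, fell by 0.52 ± 0.19 (adjusted p = 0.0335), a call lost with DESeq2 (adjusted p = 0.0719), without any 1 of the 4 bortezomib libraries and without replicate 3 or 4 of bortezomib plus nelfinavir, each of which left 0 lower. In bortezomib plus nelfinavir its libraries stood at 752, 732, 349.7 and 446 CPM, and those of BAG3 at 742, 884, 389.99 and 381. Of the 29 other cochaperones, 11 rose and 3 fell, with a median of 0.13. CHORDC1 rose by 0.95 ± 0.10 (adjusted p = 1.2e-08), FKBP4, an immunophilin of HSP90 and steroid receptors, by 0.90 ± 0.11 (adjusted p = 1.74e-07) and FNIP1 by 0.86 ± 0.14 (adjusted p = 1.65e-05). RUVBL1, an ATPase of the complexes that HSP90 assembles, fell by 1.26 ± 0.13 (adjusted p = 6.48e-09), and NUDCD2 fell by 0.75 ± 0.23 (adjusted p = 0.0154), with overlapping groups and a call lost in a fit of these groups alone (adjusted p = 0.0756). Of the 17 mitochondrial genes, 3 rose and 2 fell, beside the same 15.6% and 13.4%, with a median of -0.04, GRPEL2 highest at 0.85 ± 0.16 (adjusted p = 9.85e-05) and SPG7 lowest at -0.77 ± 0.13 (adjusted p = 2.19e-05).

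Bortezomib plus ISRIB against bortezomib asks how ISRIB changed the response. It raised HSPE1 and lowered HSP90AA1, HSPH1, TRAP1 and PTGES3, so 1 of the 10 was higher, where 6.91% of all tested genes were, and 4 were lower, where 5.34% were. HSPE1 rose 1.44-fold (log2 0.52 ± 0.08, adjusted p = 3.58e-05), and PTGES3 fell by 0.43 ± 0.08 (adjusted p = 0.000542). HSP90AB1 (-0.14), HSPD1 (-0.04), AHSA1 (-0.16), STIP1 (0.01) and CDC37 (0.01) were not called. The median log2 fold change of the 10 was -0.15, against 0.0065 over all tested genes.

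HSPE1 stood at 1242, 1187, 1082 and 1291 CPM with ISRIB, above all bortezomib libraries. PTGES3 stood at 355, 325, 252 and 326 CPM, against 434, 410, 414 and 437 in bortezomib, so these groups did not overlap either. The 3 other lowered genes had smaller margins. HSPH1 stood at 1675, 1592, 1403.5 and 1251.5 CPM, below all bortezomib libraries, and fell by 0.38 ± 0.11 (adjusted p = 0.0256). HSP90AA1 stood at 15859, 15984, 16099 and 13962 CPM, also below all of them, and fell by 0.25 ± 0.08 (adjusted p = 0.0421). TRAP1 stood at 58.1, 59.5, 62.7 and 42.2 CPM, which overlaps bortezomib, and fell by 0.40 ± 0.11 (adjusted p = 0.0164). Replicate 4 with ISRIB was the lowest of its group for HSP90AA1, HSP90AB1, HSPH1, TRAP1, HSPD1, AHSA1, STIP1 and CDC37, and it had the highest mitochondrially encoded share of any library, 40.2%. Without that replicate 1 of the 10 was called lower, with HSP90AA1 at -0.20 (adjusted p = 0.163), HSPH1 at -0.31 (adjusted p = 0.106) and TRAP1 at -0.29 (adjusted p = 0.091).

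The 3 weaker calls also depended on other libraries and settings. HSP90AA1 was not called without any 1 of 13 libraries, namely each of the 4 of bortezomib and of bortezomib plus ISRIB, DMSO replicates 2 and 4, ISRIB replicate 1, and replicates 1 and 4 of bortezomib plus nelfinavir, with log2 fold changes from -0.28 to -0.20 and adjusted p from 0.0506 to 0.163. HSPH1 was not called without bortezomib replicate 1 (-0.31) or 2 (-0.36) or replicate 3 with ISRIB (-0.36), and TRAP1 was not without bortezomib replicate 4 (-0.32). In a fit of these groups alone, 2 of the 10 were called lower, with HSP90AA1 at an adjusted p of 0.0553 and TRAP1 at 0.0881, and HSP90AA1 was not called without a filter on low counts either (-0.25, adjusted p = 0.0629).

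The same interaction for ISRIB was called for PTGES3 only, at -0.50 ± 0.12 (adjusted p = 0.0078). So 1 of the 10 was called negative, where 1.89% of all tested genes were, and 0 were called positive, where 2.93% were. TRAP1 (-0.50, adjusted p = 0.0565) and HSPE1 (0.38, adjusted p = 0.0543) were just past the threshold. Calls for both appeared in DESeq2, where TRAP1 was at -0.51 (adjusted p = 0.0131) and HSPE1 at 0.36 (adjusted p = 0.0297). TRAP1 was also called with median-of-ratios factors (-0.52, adjusted p = 0.045), with mitochondrially encoded genes removed (-0.52, adjusted p = 0.0446), with the default filter of edgeR (-0.50, adjusted p = 0.0496) and without replicate 3 of bortezomib (-0.60) or of bortezomib plus ISRIB (-0.56). HSPE1 was called with a replicate block (0.38, adjusted p = 0.0481) and without any 1 of 6 libraries, DMSO replicate 1, ISRIB replicate 2, bortezomib replicates 3 and 4, and replicate 3 of each combination, with values from 0.38 to 0.42.

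When ISRIB was added to bortezomib, 1 of the 11 heat shock genes rose and 3 fell, where 6.91% of all tested genes rose and 5.34% fell, with a median of -0.34, HSPA1A at 0.41 ± 0.11 (adjusted p = 0.013), DNAJA1 at -0.45 ± 0.08 (adjusted p = 9.57e-05) and HSF1 itself at -0.44 ± 0.14 (adjusted p = 0.0341). HSF1 and HSPA1A groups overlapped, and the HSF1 call was lost in a fit of these groups alone (adjusted p = 0.0711). The rise of HSPA1A was lost without replicate 4 of bortezomib plus ISRIB, and 6 of the list fell without a filter on low counts. Of the 29 other cochaperones 0 rose and 2 fell, where RUVBL1 fell by 0.70 ± 0.13 (adjusted p = 0.000229) and PIH1D1 fell by 0.43 ± 0.11 (adjusted p = 0.00937), and edgeR gave 1 higher without replicate 3 of bortezomib or of bortezomib plus ISRIB. The count of 2 lower was 5 with library totals alone and 4 with DESeq2 or a replicate block. Of the 17 mitochondrial genes 0 rose and 2 fell, where AFG3L2 fell by 0.41 ± 0.10 (adjusted p = 0.00682) and HSPA9 fell by 0.38 ± 0.10 (adjusted p = 0.0102), and 4 fell without replicate 1 of bortezomib plus ISRIB or with library totals alone. AFG3L2 groups overlapped too. HSP90B1 rose by 1.22 ± 0.10 (adjusted p = 1.42e-10) from 1664 ± 129.6 to 3869 ± 453 CPM, and it also rose by 1.16 ± 0.10 (adjusted p = 1.36e-10) when nelfinavir was added.

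Bortezomib was also compared with its absence in cells given nelfinavir or ISRIB, which shares libraries with the comparisons above, so the values stand side by side. On nelfinavir 9 of the 10 rose, where 28.7% of all tested genes did, and TRAP1 fell, where 28.4% did. On ISRIB 8 of the 10 rose, where 29.1% did, and TRAP1 fell, where 25.6% did. HSPH1 rose 24.2-fold on nelfinavir (log2 4.60 ± 0.13, adjusted p = 4.14e-24) and 5.30-fold on ISRIB (2.40 ± 0.12, adjusted p = 1.15e-17), beside 5.96-fold in cells without either. HSP90AA1 rose 6.96-fold and 3.06-fold, beside 3.71-fold, and HSPD1 5.78-fold and 2.44-fold, beside 2.27-fold. CDC37, the kinase cochaperone, rose 2.00-fold and 1.83-fold, beside 1.99-fold. TRAP1 fell by 0.36 ± 0.11 (adjusted p = 0.00629) on nelfinavir and fell by 0.35 ± 0.11 (adjusted p = 0.00768) on ISRIB.

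The cochaperone PTGES3 and the HSP10 gene HSPE1 depended on the scaling here. PTGES3 rose by 0.50 ± 0.08 on nelfinavir (adjusted p = 5.83e-06), which library totals alone turned to -0.02 (adjusted p = 0.877), and was not called on ISRIB (-0.11, adjusted p = 0.257), where it was called lower with upper-quartile scaling (-0.20, adjusted p = 0.0352), with library totals alone (-0.66, adjusted p = 2.39e-08) and without replicate 1 of bortezomib plus ISRIB (-0.23, adjusted p = 0.0283). HSPE1 rose by 1.34 ± 0.08 on nelfinavir and by 0.64 ± 0.08 on ISRIB (adjusted p = 4.16e-15 and 6.16e-08), and the rise on ISRIB was not called with library totals alone (0.10, adjusted p = 0.294).

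Bortezomib plus nelfinavir against bortezomib plus ISRIB sets the 2 combinations side by side. With nelfinavir 7 of the 10 were higher, where 13.2% of all tested genes were, and 0 were lower, where 11.3% were. HSPH1 was 3.02-fold higher (log2 1.59 ± 0.12, adjusted p = 2.85e-12), HSPD1 2.05-fold (1.04 ± 0.10, adjusted p = 2.52e-09) and HSP90AA1 1.79-fold (0.84 ± 0.08, adjusted p = 2.03e-09). TRAP1 (-0.0048), HSPE1 (0.17) and CDC37 (0.04) were not called. PTGES3 (0.31 ± 0.08, adjusted p = 0.00563) was not called in a fit of these groups alone (0.29, adjusted p = 0.097), and HSPE1 was called without bortezomib replicate 1 (0.21) or replicate 4 of either combination (0.25 each).

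The balance within pairs of partner genes was read as the ratio of their counts in a library, which scaling between libraries cannot move; it is a description, compared between groups only. HSP90AA1 over HSP90AB1 was 1.66, 1.62, 1.73 and 1.70 in DMSO and 2.31, 2.27, 2.61 and 2.42 in bortezomib, which do not overlap. Its means were 1.72 ± 0.130 in ISRIB, 1.49 ± 0.101 in nelfinavir, 2.58 ± 0.123 in bortezomib plus nelfinavir and 2.23 ± 0.135 in bortezomib plus ISRIB (SD, n = 4), so the heat-inducible gene took a larger part of the cytosolic pair in all 3 groups with bortezomib. HSPD1 over HSPE1 was 2.70, 2.43, 2.17 and 2.04 in DMSO and 5.28, 4.88, 3.95 and 3.65 in bortezomib. With ISRIB added to bortezomib it was 3.02, 3.09, 3.53 and 2.33, below all bortezomib libraries and overlapping DMSO. Its means were 1.91 ± 0.237 in ISRIB, 2.38 ± 0.381 in nelfinavir and 5.42 ± 0.989 in bortezomib plus nelfinavir. All 4 genes of these ratios have the near copies described above.

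**Figure D4:**
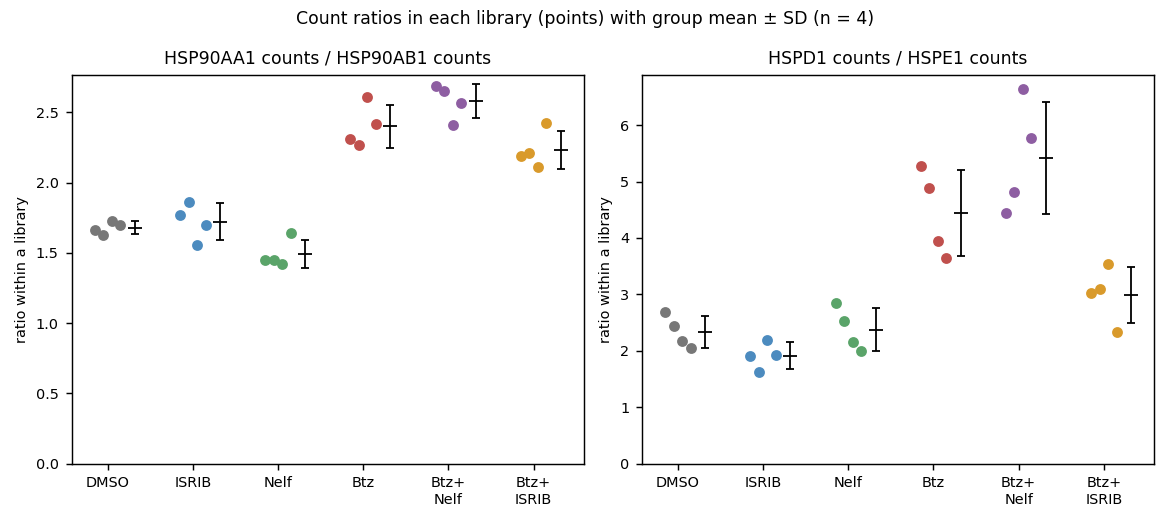
Ratio of HSP90AA1 to HSP90AB1 counts (left) and of HSPD1 to HSPE1 counts (right) in each library (points), with the group mean and SD (n = 4). The left ratio is at most 1.86 without bortezomib and at least 2.11 with it, and the right ratio averages 4.44 in bortezomib and 2.99 in bortezomib plus ISRIB.

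Genes outside the 10 whose log2 CPM followed theirs most closely were named by Pearson's r over the 24 libraries, as a description with no p, since those libraries fall into a set with and a set without bortezomib. DNAJB1 (0.996), PPP2R2A (0.989) and HSPB1 (0.988) were closest to HSP90AA1. PPP2R2A (0.992), DNAJB1 (0.989) and FXR1 (0.987) were closest to HSP90AB1, and PAWR (0.987), PPP2R2A (0.983) and DNAJB1 (0.981) to HSPD1. CDC37 was followed most closely by MED15 (0.982), RRP12 (0.977) and KIF1B (0.977). TRAP1 had weaker matches, SLC30A9 (0.839), METTL8 (0.803) and CDCA3 (0.788).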

How the data were processed

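The authors trimmed reads with cutadapt 2.8, aligned them with STAR to GRCh37 and deposited raw read counts for 18915 genes in 24 libraries; counting used Ensembl genes in an nf-core pipeline, from a forward-stranded 3′ kit, and the strand setting, the rule for reads matching several places and any use of molecular identifiers were not given. Counts were scaled by TMM and fitted with the quasi-likelihood test of edgeR 4.0.16 in R 4.3.3, all 6 groups in a single fit, after filterByExpr with a minimum count of 5 and a total of 25. P-values were adjusted by Benjamini-Hochberg over the 12685 genes left, and calls were made at 0.05. The fit was tested on simulated data. Interactions were contrasts of that fit.

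Depth and mitochondrially encoded shares were compared by two-sided exact permutation tests in SciPy 1.17.1. Total counts of 5154533 to 6943164 set the counting precision. All 10 genes were named in every comparison, with up to 3 called genes highest and 2 lowest in each of the lists other HSP90 cochaperones (29 genes), mitochondrial chaperones and proteases (17) and HSF1 and cytosolic heat shock genes (11), and HSP90B1. The 10 genes and the lists were chosen with earlier results of these data known. Near copies were sought with BLAST 2.17.0. Alternatives were other scalings, filters, DESeq2 1.42.0, the compared groups alone, a replicate block, removal of mitochondrially encoded genes and leaving out each library; those for lists were chosen after seeing the data. The main values use every library.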

Additional observations from a re-analysis of the deposited data

Results flagged for a closer look

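In 5 of 90 groups of 4 libraries, a single library stood far from the other 3, and chance does so in about 1 in 20 groups. HSP90AA1 was at 33495 CPM in replicate 3 of bortezomib plus nelfinavir, where the others ran from 25064 to 26335. HSP90AA1 was at 13962 CPM in replicate 4 of bortezomib plus ISRIB, where the others ran from 15859 to 16099. HSP90AB1 was at 6629 CPM in bortezomib replicate 3, below the others at 7997 to 8090.1. AHSA1 was at 185 CPM in ISRIB replicate 3, above the others at 145 to 151. The ratio of HSP90AA1 to HSP90AB1 was 1.64 in nelfinavir replicate 4, above the others at 1.42 to 1.45.

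The change with nelfinavir differed between cells with and without bortezomib, by a called interaction in the edgeR fit, for 8 of the 10 genes. Of these, 7 were called positive, where 9.74% of all tested genes were, and 1 was called negative, where 10.0% were. On the log2 scale the difference was 0.91 for HSP90AA1 (adjusted p = 5.11e-07), 0.63 for HSP90AB1 (adjusted p = 0.00249), 2.02 for HSPH1 (adjusted p = 3.7e-11), 1.34 for HSPD1 (adjusted p = 1.66e-08) and 1.08 for HSPE1 (adjusted p = 2.25e-08). It was 0.62 for AHSA1 (adjusted p = 0.00321), 0.95 for STIP1 (adjusted p = 5.48e-05) and -0.50 for TRAP1 (adjusted p = 0.0194), a call lost without any 1 of 5 libraries and without a filter on low counts (adjusted p = 0.0624). The change with ISRIB differed in the same way for PTGES3, by -0.50 (adjusted p = 0.0078).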

How the results depend on the processing

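Of the 100 log2 fold changes of the 10 genes, 4 changed sign with library totals alone in place of TMM, where the value under either scaling was called: TRAP1 (-0.35), HSPE1 (-0.23) and PTGES3 (-0.11) in bortezomib against DMSO, and PTGES3 (-0.016) in bortezomib plus nelfinavir against nelfinavir. No called value changed sign under the other scalings, filters and fits or when a library was left out. Library totals alone moved the median gene by -0.50, -0.51 and -0.54 in the 3 comparisons that add bortezomib, as given in the results. Upper-quartile scaling moved it by -0.083, -0.10 and -0.092 in the same comparisons, in the same order. The cause was not tested.

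With library totals alone, genes called higher and lower numbered 1490 and 6266 for bortezomib against DMSO, 1584 and 6518 for bortezomib plus nelfinavir against nelfinavir, and 1532 and 6397 for bortezomib plus ISRIB against ISRIB, so the share of calls that were higher went from 51.6% to 19.2%, from 50.3% to 19.6% and from 53.3% to 19.3%. It also went from 56.4% to 40.5% for bortezomib plus ISRIB against bortezomib and from 60.8% to 49.4% for the ISRIB interaction. Of the 10 genes, 2 were then lower in bortezomib against DMSO, and 2 in bortezomib plus ISRIB against ISRIB, as also with upper-quartile scaling.

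In a fit of the compared groups alone, 1925 genes were higher and 1948 lower with nelfinavir, and 4 and 76 with ISRIB. Bortezomib plus nelfinavir against bortezomib gave 1284 and 962, and bortezomib plus ISRIB against bortezomib gave 510 and 357 (of the 10, 2 lower). The combinations against each other gave 985 and 755. Fewer samples set the spread in these fits. Without a filter on low counts ISRIB gave 5 and 34, and 0 of the 10 had a nelfinavir interaction called negative. DESeq2 gave 1 and 20 for ISRIB. It called 436 ISRIB interactions negative, and of the 10 genes 1 positive and 2 negative. Of the 10, 2 had ISRIB interactions called negative with median-of-ratios factors, with mitochondrially encoded genes removed and with the default filter. With a replicate block 1 was called positive (HSPE1, 0.38). Over counts not mitochondrially encoded, the 10 genes took 1.74% in DMSO, 1.74% in ISRIB, 1.4003% in nelfinavir, 4.39% in bortezomib, 6.10% in bortezomib plus nelfinavir and 3.84% in bortezomib plus ISRIB. Leaving out each library gave 3 to 6 of the 10 lower with nelfinavir. It gave 0 to 1 lower in bortezomib plus nelfinavir against bortezomib and 1 to 4 in bortezomib plus ISRIB against bortezomib. It gave 1 to 2 lower in bortezomib plus ISRIB against ISRIB. Nelfinavir interactions called negative numbered 0 to 1. ISRIB interactions called positive numbered 0 to 1, and those called negative 1 to 2.

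Among the lists, other HSP90 cochaperones lower with nelfinavir numbered 5 with upper-quartile scaling, 5 with DESeq2 and 6 in the fit of those groups alone, and those lower on adding ISRIB to bortezomib 5 with library totals, 4 with DESeq2 and 4 with the block; mitochondrial genes lower there numbered 4 with library totals. The labels do not say that replicate numbers pair libraries; 11 of 24 libraries were closest to their own number, and 13 of 60 pairs sharing a number had a correlation over 0.1, beside 20 of 180 pairs that did not share one, a hint that leaves pairing open. With the replicate block, PTGES3 was called lower with nelfinavir (-0.23, adjusted p = 0.0436) and HSPE1 gained the call given above; no other call of the 10 genes changed. TRAP1 and STIP1 had the fewest counts of the 10. Their SE in bortezomib against DMSO, 0.1085 and 0.1157, were below that of HSPH1, 0.1206.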

Other observations

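HSP90B1, the endoplasmic reticulum HSP90 (ENSG00000166598, chr12:104323885-104347709, plus strand), averaged 1213.5 ± 17.1 CPM in DMSO, 1002 ± 68.2 in ISRIB, 1049 ± 150 in nelfinavir, 1664 ± 129.6 in bortezomib, 3721 ± 555 in bortezomib plus nelfinavir and 3869 ± 453 in bortezomib plus ISRIB (SD, n = 4). In bortezomib plus ISRIB its libraries stood at 4265, 4121, 3240.6 and 3849.6, all above bortezomib at 1784, 1765, 1526.5 and 1582. The interaction in the edgeR fit was 1.37 ± 0.14 for nelfinavir (adjusted p = 8.18e-09) and 1.49 ± 0.14 for ISRIB (adjusted p = 8.25e-09), and the combinations did not pass the test against each other (-0.06, adjusted p = 0.728). The promoter window of HSP90B1 holds 5 CCAAT boxes, on either strand, and 36% of windows hold at least 1. Exons of UQCC6 on the opposite strand share 805 bases with HSP90B1, and the strand setting of the counting was not given.

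RUVBL1, an ATPase that works with HSP90 in assembling protein complexes, fell when either drug was added to bortezomib, by values given with the cochaperone lists. Its interaction was -0.95 ± 0.18 for nelfinavir (adjusted p = 0.000198) and -0.73 ± 0.18 for ISRIB (adjusted p = 0.00993).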
